A study of Homo sapiens with 2 samples.

Results

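The ARP2/3 complex builds branched actin networks, and the transcripts of its subunits were compared between wild type and radiation-adapted SK-ES1 cells. The 10 genes examined were the subunit genes ACTR2, ACTR3, ARPC1A, ARPC1B, ARPC2, ARPC3, ARPC4, ARPC5 and ARPC5L, and WASL. WASL encodes N-WASP, which switches the complex on and is not one of its subunits. Genes were matched by symbol to the probe annotation of the array. Of the 10 genes, 9 had a named probe, with 13 probes in all, among 20046 genes named on the array. ACTR2 was not analysed here, since no probe was named for it. The set was chosen by the measured ratios of the same 2 arrays, among them the low ratio of ARPC3, so all values are a description and none was tested.

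SK-ES1 is an established Ewing sarcoma cell line driven by the fusion of EWSR1 with the ETS factor gene FLI1. Total RNA of wild type SK-ES1 and of a radiation-adapted derivative of the line, labelled 4 Gy, was hybridised to Illumina BeadChips, 1 array for each. The labels do not say how the 4 Gy was delivered, how many clones or passages the adapted line went through, or when its cells were last irradiated. There were no replicates, so no difference below has a replicate check, and differences in how the cultures stood at harvest cannot be told apart from those of the adapted line.

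The ARP2/3 complex binds the side of an actin filament and starts a new filament from it as a branch. ACTR2 and ACTR3 resemble actin and form the base of the new filament, while the ARPC subunits hold them together and grip the older filament. N-WASP and the related WAVE and WASH proteins bring actin monomers to the complex, and the small GTPases CDC42 and RAC1 control N-WASP and WAVE. Branched networks push out the cell edge in migration and drive uptake and sorting of vesicles. Humans carry pairs of closely related genes for some subunits, ARPC1A with ARPC1B, ARPC5 with ARPC5L and ACTR3 with ACTR3B, and a complex holds 1 of each pair.

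ARPC3 and ARPC1B were lower in the radiation-adapted cells and the other 7 measured genes were within 1.5-fold of wild type. ARPC3, a small subunit that contacts ACTR3, had a normalized signal 3.35-fold lower. ARPC1B, a propeller-shaped subunit that contacts activators, was 2.86-fold lower. ARPC5 stood highest, at 1.38-fold higher. Past 1.5-fold in either direction were 2 of the 9 genes and 22.1% of all 10189 detected genes. At 2-fold, 2 of the 9 genes were lower, where 2.07% of the detected genes were, and 0 of 9 were higher, where 4.02% were. ARPC3 was among the values that led to the choice of genes, so nothing is read from the share of 2 in 9.

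To show where the lowest and the highest of these genes start, the 250 bases before each start are printed from RefSeq (GRCh38.p14), on the strand of the gene. The ARPC3 window is chr12:110450338-110450587, minus strand, and the ARPC5 window is chr1:183635784-183636033, minus strand. Capitals mark matches to CCGGAAG, a core ETS motif, searched because the fusion protein of this line has an ETS DNA-binding domain.
ARPC3: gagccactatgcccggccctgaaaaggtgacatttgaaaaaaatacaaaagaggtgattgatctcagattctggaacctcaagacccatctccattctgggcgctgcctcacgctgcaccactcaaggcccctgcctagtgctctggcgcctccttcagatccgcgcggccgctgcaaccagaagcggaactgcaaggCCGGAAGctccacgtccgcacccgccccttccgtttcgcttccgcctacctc
ARPC5: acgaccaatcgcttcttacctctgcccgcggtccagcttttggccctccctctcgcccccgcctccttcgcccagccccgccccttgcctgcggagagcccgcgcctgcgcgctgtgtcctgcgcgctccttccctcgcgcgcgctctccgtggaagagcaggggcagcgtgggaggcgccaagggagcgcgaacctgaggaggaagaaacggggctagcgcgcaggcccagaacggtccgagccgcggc

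The ARPC3 window held 1 match to CCGGAAG, on the gene's strand, whose first base lay 52 bases before the start, and the ARPC5 window held 0. Over both strands, 8.52% of the 35116 RefSeq windows of this length held that motif. Windows were at hand for ACTR2 and for the measured genes other than ARPC1B, 12 in all since some genes have several starts, and 4 of the 12 held it, 1 each for ACTR2, ARPC1A, ARPC3 and WASL. The tandem GGAAGGAA, a short form of the GGAA repeats that the fusion protein binds, was in 3.06% of all windows and in that of ACTR3. It can overlap the ETS motif at its GGAA. The GC box GGGCGG was in 42.6% of all windows and in 10 of the 12 windows. The genes with the ETS motif included ARPC3 at 3.35-fold lower as well as ARPC1A and WASL, which were within 1.5-fold of wild type. No binding of any factor was measured.

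The arrays had median raw signals of 137 (wild type) and 139.3 (radiation-adapted), and 33.6% and 32.5% of their 47323 probes were detected. Detection meant a detection p-value under 0.01, and a gene was represented by its brightest probe. All 9 genes were detected on both arrays, as were 10 of the 13 probes, and the other 3, of ARPC2 and ARPC4, had raw signals from 130.6 to 153.5. Of the 9 Ewing sarcoma markers with a named probe, 9 were detected, CD99 and NKX2-2 among them. Of these 9, 8 were above 0 and NKX2-2 was at -0.68, with a median log2 ratio of 0.48. Of all detected genes, 53.4% were below 0 and the median was -0.04. Of 7 leukocyte markers with a probe 3 were detected: CD68 (log2 ratio 0.89, its other detected probe -0.23), CD79A (0.54) and LYZ, at least 1.11-fold lower. Of 7 fibroblast markers 5 were detected, with COL1A2 at 1.10 (its other detected probe -0.06), THY1 at 0.75 and DCN at -0.59. Detected too were 2 of 7 epithelial and 1 of 5 endothelial markers. The part of other cells in the ARP2/3 values was not tested. In RNA from a whole culture, fewer cells that express a gene and less of its RNA per cell cannot be told apart.

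**Figure D1:**
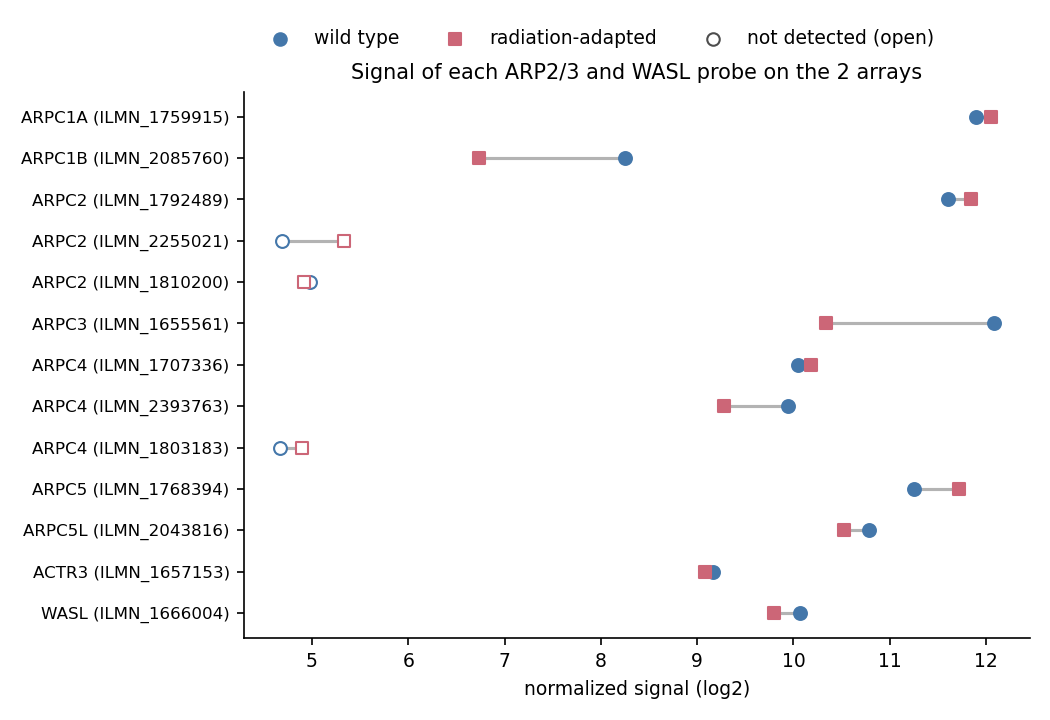
Normalized log2 signal of each of the 13 probes (rows) on the wild type array (circles) and the radiation-adapted array (squares), with open symbols for the 3 probes detected on neither array and a line joining the arrays. ARPC3 and ARPC1B have the longest lines, with the radiation-adapted signal lower, and the detected probes of ARPC4 run in opposite directions.

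The ARPC3 probe gave a raw signal of 4393.3 in wild type cells and 1419.4 in radiation-adapted cells. After background correction and normalization the log2 signals were 12.08 and 10.34, a log2 ratio (radiation-adapted minus wild type) of -1.75. The transcript was well above background on both arrays, so its fold depends little on the background correction: without it, ARPC3 was 3.17-fold lower. Of the 10189 detected genes, 20 had a ratio as low as or lower than that of ARPC3, itself included. The rank of ARPC3 from the lowest was 6 without background correction and 33 in the authors' processed values. Among the 1923 genes detected on both arrays with a mean log2 signal of 10 or more, a limit set after the level of ARPC3 was known, ARPC3 had the lowest ratio. The next lowest of these bright genes had a log2 ratio of -1.25. ARPC3 was also the lowest of the 1923 without background correction, with median scaling, with an offset of 50 and in the authors' processed values.

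A single probe measured ARPC3, annotated to transcript NM_001278556, and RefSeq lists 2 mRNAs of the gene. A lower level of the gene and a shift between its transcripts therefore cannot be told apart. RefSeq also names 5 pseudogenes of ARPC3, and whether the probe sees their transcripts was not tested.

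ARPC1B gave a raw signal of 408.6 in wild type and 223 in radiation-adapted cells. These values lay 271.6 and 83.7 above the median of their arrays, so the lower one was close to background. The log2 signals after normalization were 8.25 and 6.73, and the log2 ratio was -1.52. Without background correction ARPC1B was 1.91-fold lower, which left ARPC3 as the 1 gene of 9 past 2-fold, where 0.275% of all detected genes were at least 2-fold lower. With an offset of 50 it was 2.41-fold lower. ARPC1B too was measured by 1 probe. Its direction was the same under the 4 alternatives that could alter its value. All 4 start from the same arrays, so the unchanged direction adds no support.

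ARPC1A, the paralogue of ARPC1B, gave raw signals of 3863.7 in wild type and 4437.7 in radiation-adapted cells, a log2 ratio of 0.15. The ratio of ARPC1A thus lay 1.67 log2 units above that of ARPC1B, or 1.08 units without background correction. The same contrast was smaller for ARPC5 and ARPC5L, the alternative smallest subunits. ARPC5 gave raw signals of 2484.3 and 3520.2 (log2 ratio 0.47), and ARPC5L gave 1861.4 and 1597.6 (-0.27). The difference between the ratios of ARPC5 and ARPC5L was 0.73 log2 units and 0.70 without background correction.

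ACTR3, the actin-like subunit that was measured, gave raw signals of 677.1 in wild type and 660.1 in radiation-adapted cells, a log2 ratio of -0.08. Its paralogue ACTR3B was at -0.42, with raw signals of 283.6 and 250 and a further detected probe at -0.44. Neither ACTR3 nor ACTR3B reached 1.5-fold.

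ARPC2, which with ARPC4 forms the core that grips the older filament, gave raw signals of 3160.6 in wild type and 3839.3 in radiation-adapted cells, a log2 ratio of 0.24. ARPC4 alone of the measured genes had 2 detected probes, and these disagreed. Its brighter probe, annotated to NM_001024959, gave raw signals of 1157.3 and 1286.7 and a log2 ratio of 0.13. Its other detected probe, annotated to NM_001024960, gave 1089.1 and 743.8 and a log2 ratio of -0.67. The probes thus differed by 0.80 log2 units, and the direction of ARPC4 depends on which is used: the median of both was -0.27.

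A difference of at least that size between the 2 brightest detected probes was found in 223 (8.69%) of 2567 genes with more than 1 detected probe. Where the dimmer probe had a mean log2 signal of 9 or more, as in ARPC4, it was found in 17 (3.14%) of 541 genes. RefSeq lists 4 mRNAs of ARPC4 and a read-through gene, ARPC4-TTLL3, which begins at the same locus. Whether the probes see different transcripts was not tested.

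WASL, the activator, gave raw signals of 1173.7 in wild type and 1009.7 in radiation-adapted cells, a log2 ratio of -0.28. Over the 9 genes, 4 ratios were above 0 and 5 below, with a median of -0.08, where 53.4% of all detected genes were below 0 and their median was -0.04. The median of the 9 changed sign, to 0.03, when WASL or ARPC3 was left out. This split was near that of all detected genes, so nothing about the subunits is read from it. After ARPC3 and ARPC1B came WASL and ARPC5L, at -0.28 and -0.27, whose order turned without background correction.

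**Figure D2:**
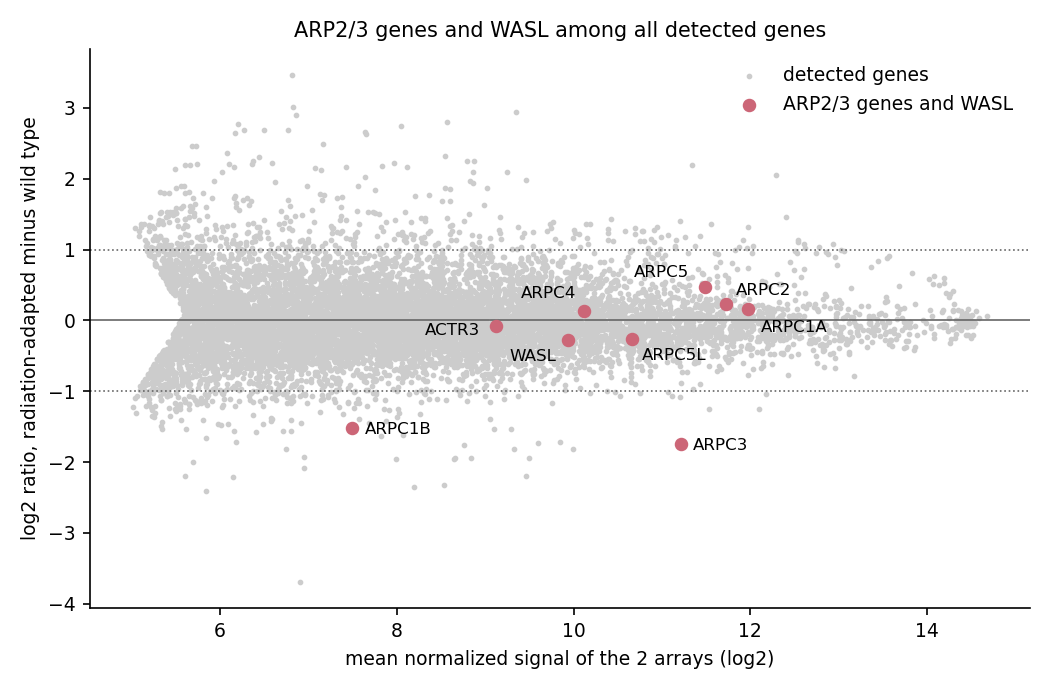
Log2 ratio (radiation-adapted minus wild type) against the mean normalized log2 signal of both arrays for 10189 detected genes (grey) and for the 8 measured ARP2/3 genes and WASL (coloured, named), with dotted lines at 2-fold. ARPC3, at a mean of 11.2, lies below the other bright genes, ARPC1B lies below the lower dotted line at a mean of 7.49, and the others lie within the cloud.

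The position of the genes was set beside the ratios of their neighbours. For each gene the median was taken over up to 50 protein-coding neighbours in RefSeq order, 25 a side where there were as many, that both arrays detected. ARPC1A and ARPC1B are adjacent on chromosome 7, and the median of their 50 neighbours was -0.02. Of these 50 neighbours, 0 had a ratio as low as that of ARPC1B. ARPC3 lies on chromosome 12, where the median of 50 neighbours was -0.09 and 1 of them had a ratio as low as ARPC3. The genes on either side of ARPC3 were ANAPC7, at -0.85, and GPN3, at -0.09. The ratios of ARPC3 and ARPC1B were far below the medians of their neighbours, though 1 neighbour of ARPC3 was as low. The part of position in these ratios was not tested.

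ARPC5 lies on the long arm of chromosome 1 and its neighbours were higher as well. The median of its 50 neighbours was 0.34, and 17 of them had a ratio as high as that of ARPC5, 0.47, or higher. For the nearest 20 the median was 0.53. Neighbour medians of the other genes lay between -0.11 for WASL and 0.07 for ACTR3. The part of position in the ratio of ARPC5 was not tested.

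**Figure D3:**
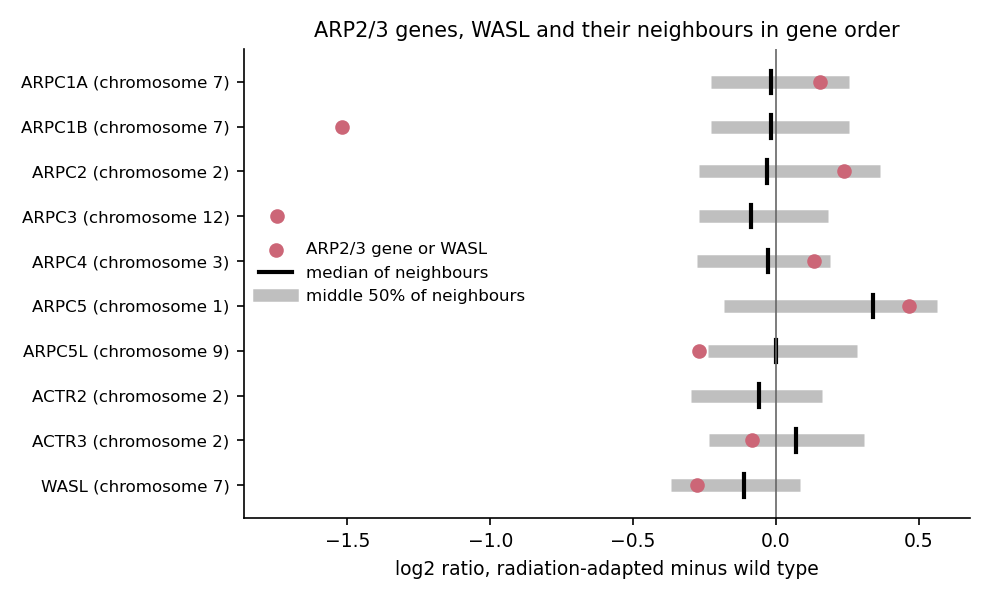
Log2 ratio (radiation-adapted minus wild type) of each ARP2/3 gene and WASL (points), with the median (black bar) and the middle 50% (grey band) of up to 50 neighbouring genes. ARPC3 at -1.75 and ARPC1B at -1.52 lie far left of their bands, the band of ARPC5 has a median of 0.34, and ACTR2 has no point.

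Other genes of actin assembly were taken from 8 lists. A gene detected on 1 array is given as at least N-fold: its signal there was set against the dimmest detected signal of the other array, or against its own signal on that array where this was higher. Of 16 detected partners and upstream signals of the WASP family, 2 had a measured ratio past 2-fold in the lower direction (2.07% of all detected genes) and 0 in the higher (4.02%), and the median log2 ratio was -0.06. RAC3, a RAC-type GTPase, gave raw signals of 895.3 in wild type and 325.7 in radiation-adapted cells, a 3.84-fold lower normalized signal. TIAM1, an exchange factor that activates RAC proteins, was at least 1.39-fold lower, being detected in wild type cells alone, as was WIPF1, a partner of the WASP proteins, at least 1.64-fold lower and named after its value was seen. The GTPase genes CDC42 (-0.19), RAC1 (-0.19) and RAC2 (0.40), chosen after their values were seen, were within 1.5-fold, and a further probe of RAC1 was at 0.30. Of the RAC genes, RAC3 thus had by far the largest difference.

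The WAVE complex activates ARP2/3 at the cell edge. Of its 8 detected genes 3 were below 0, where 53.4% of all detected genes were, and the median log2 ratio was 0.24. At 2-fold there were 0 in either direction, where 2.07% of all genes were lower and 4.02% higher. NCKAP1L, the form of a scaffold subunit known from blood cells, gave raw signals of 2919 in wild type and 4966 in radiation-adapted cells and was 1.66-fold higher. CYFIP2, which binds RAC, was 1.48-fold higher, and its other detected probe was at 1.06 on the log2 scale. NCKAP1L, HCLS1, WAS and RAC2, all known from blood cells, were detected on both arrays, a grouping made after the values were seen. It was picked among genes detected on both arrays and is not a full list of such genes, so nothing is read from it. CORO1A, a coronin of blood cells that was detected in wild type cells alone, is 1 gene it leaves out. Of the leukocyte markers, CD68 and CD79A were detected on both arrays as well, and PTPRC, CD3E, CD14 and LAPTM5 on neither.

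The WASH complex activates ARP2/3 on endosomes. Of its 4 detected genes 3 were below 0 (53.4% of all detected genes) and 1 had a measured ratio past 2-fold lower (2.07%), with a median of -0.26. WASHC4 was at least 1.44-fold lower, detected in wild type cells alone, and WASHC3 was at -0.40. WASHC1 has near-identical copies, which makes its value of 0.05 uncertain, and its other detected probe was at -0.87. Of the 5 other activators and branch stabilisers, 0 were at 2-fold and the median was 0.13. The drebrin-like gene DBNL was at -0.39, its other detected probe at -0.07, and HCLS1, which stabilises branches, at 0.22.

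Of 6 detected inhibitors and debranching factors, 3 were above 0 and 3 below (53.4% of all detected genes), and the median was 0.05. By measured ratio, 1 of the 6 was past 2-fold lower (2.07% of all detected genes) and 0 past 2-fold higher (4.02%). CORO1A, a coronin of blood cells, was at least 1.43-fold lower, detected in wild type cells alone, and CORO7, a coronin of the Golgi, was at 0.41. Formins and other nucleators make unbranched filaments without ARP2/3. Of their 12 detected genes, 7 were above 0 and 5 below (53.4% of all detected genes), the median being 0.13 and 0 lying at 2-fold. FMNL1 was at least 1.44-fold higher and FMNL2 was at 0.60. Of 6 detected genes of other actin-related proteins, among them the subunit paralogue ACTR3B at -0.42, 0 were at 2-fold and the median was 0.07. The chromatin remodelling gene ACTR5 was highest at 0.38.

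Of 18 detected genes of actin itself and of factors that bind, cap and cut it, 1 had a measured ratio past 2-fold higher (4.02% of all detected genes) and 0 past 2-fold lower (2.07%), and the median was -0.06. At 1.5-fold, 3 were higher and 1 lower, a share near the 22.1% of all genes. SSH1, a phosphatase that activates the filament-cutting cofilins, was at least 1.89-fold higher, detected in radiation-adapted cells alone, and CAP2, which binds actin monomers, was 1.84-fold higher. The others past 1.5-fold, named after their values were seen, were the filament-cutting gene GSN at 0.78 and the monomer-binding gene TWF1 at -0.68. The other detected probe of TWF1 was at -0.27. Without background correction GSN was at 0.36 and TWF1 at -0.35, both within 1.5-fold. ACTB was at -0.07 and ACTG1 at 0.02, though a further detected probe of ACTG1 was at -1.37. Both actins have near-identical copies, so their values are uncertain. Over the 8 lists, the medians ran from -0.26 for the WASH complex to 0.24 for the WAVE complex.

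**Figure D4:**
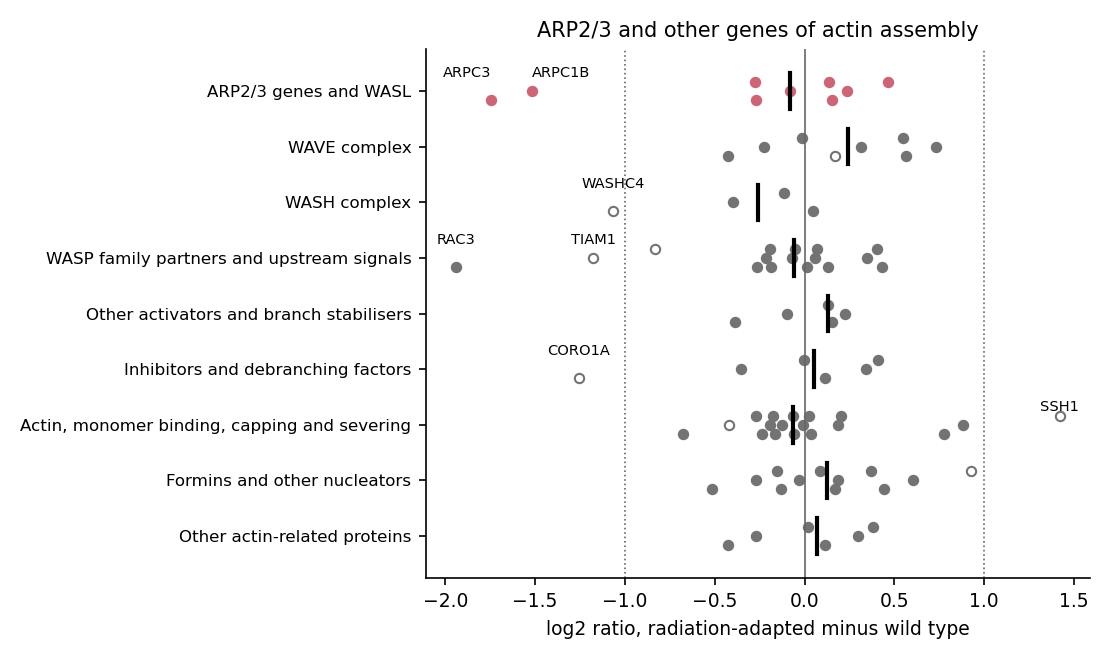
Log2 ratio (radiation-adapted minus wild type) of each detected gene, 1 point a gene, for the ARP2/3 genes and WASL (coloured) and 8 further lists (grey), with open points for genes detected on 1 array and black bars for medians. ARPC3, ARPC1B and RAC3 are the genes detected on both arrays that lie past the dotted 2-fold lines, and every median lies between -0.26 and 0.24.

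The processing altered ARPC1B and ARPC4 and left the other genes close to their values. Taking the probes detected on both arrays or the median of a gene's probes could not alter a gene with 1 detected probe, which left 4 alternatives for each of them. Over these 4, ARPC3 ranged from -1.76 to -1.66 on the log2 scale, ARPC1B from -1.48 to -0.93 and ARPC5 from 0.45 to 0.47. Over all detected genes the background correction mattered more: 211 genes were at least 2-fold lower and 410 at least 2-fold higher, so that 66.0% of these calls were higher, compared with 79.4% without background correction.

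**Figure D5:**
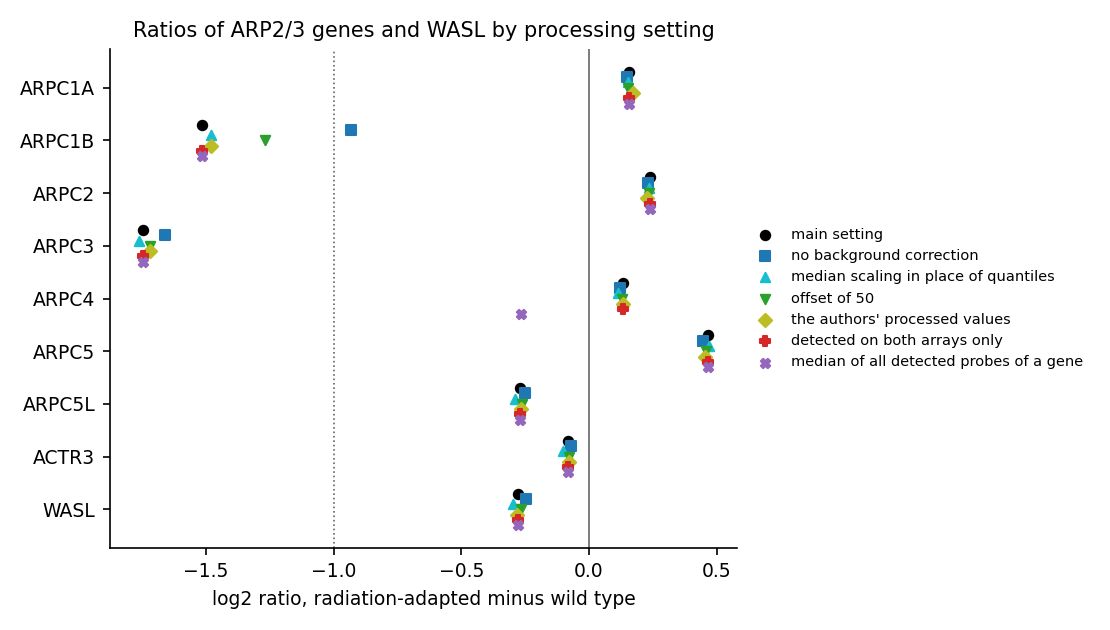
Log2 ratio (radiation-adapted minus wild type) of each ARP2/3 gene and WASL under the main setting and 6 processing alternatives (symbols), with a dotted line at 2-fold lower. ARPC3 stays between -1.76 and -1.66, ARPC1B crosses the dotted line without background correction at -0.93, and ARPC4 crosses 0 when the median of its detected probes is taken.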

How the data were processed

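Total RNA was extracted with Trizol and labelled with an Illumina TotalPrep kit, per the labels' protocols. The authors deposited an average bead signal intensity for each probe and array, linear and not normalized, with a detection p-value for each, per the file headers. The scanner, its software and a genome build were not given in the sources used here. A further table of processed intensity values was deposited, of unstated making. Their sorted columns agreed within 0.2, both medians were 10.6 and the lowest value was -28.6, so they were read as linear, background-subtracted and quantile-normalized, and used as an alternative only.

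R 4.3.3 and limma 3.58.1 served to process the raw signals (neqc: normexp background from detection p-values, offset 16, quantile normalization, log2). Background correction enlarges the folds of dim genes and the offset makes them smaller. Ratios and figures were made with NumPy 2.4.6, pandas 2.3.3, matplotlib 3.10.9 and SciPy 1.17.1 under Python 3.11.15. Gene names came from the platform annotation, updated through RefSeq (GRCh38.p14): of 47323 probes, 30113 had 1 gene symbol, 8 several and 17202 were not named here, and 30074 matched a current entry. Probes with several genes were not used. RefSeq gave gene order and promoter windows, whose coordinates are its own and not the array's.

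With 1 array a group there was no test and no p-value between groups, the number of arrays limits the precision, and counts use measured ratios of 2-fold unless a bound is named. The genes and lists were chosen with earlier results of these data known. Named were the ARP2/3 genes and WASL, ACTB, ACTG1 and, from each list, up to 4 genes at 2-fold or the 2 farthest from 0. CDC42, RAC1, RAC2, WAS, WASHC1, WIPF1, GSN, TWF1, the neighbours ANAPC7 and GPN3 and the cell markers are named outside this rule, with their values already known. The alternatives were no background correction, median scaling, an offset of 50, the authors' processed values (values below 0 set to 0, offset 16), detection on both arrays and the median of a gene's detected probes. The steps were run on simulated data with known changes and an assumed noise, which says nothing about the spread between cultures.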

Additional observations from a re-analysis of the deposited data

How the results depend on the processing

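Over 32 results, 148 values were recomputed. Of these, 128 stayed within tolerance (0.33 log2 units for a gene, 0.1 for a median, 1.5 times for a count) and 20 moved further. ARPC3 and ARPC1B kept their direction, but every setting starts from the same arrays, so this adds no support. The 128 include values that could not move: detection on both arrays and the median of probes cannot alter a gene whose 1 detected probe was detected on both arrays. The gene tolerance is the spread between probes of a gene on the same arrays, not between cultures. Without background correction, ARPC1B was at -0.93, leaving 1 ARP2/3 gene at least 2-fold lower, and 28 genes in all were lower and 108 higher. With an offset of 50 these counts were 70 and 213, over genes detected on both arrays 125 and 253, and at 1.5-fold 977 and 1272. With the median of a gene's detected probes, ARPC4 was at -0.27, as was the median of the ARP2/3 genes and WASL, and the WASH complex was at -0.41, or -0.12 over genes detected on both arrays. The median of the ARP2/3 genes and WASL was 0.025 without WASL and 0.025 without ARPC3. With 20 neighbours, the neighbour medians were -0.12 for ARPC1A and ARPC1B, -0.22 for ARPC2 and 0.53 for ARPC5. The median of the inhibitors and debranching factors turned to -0.017 with the median of a gene's detected probes. No paired analysis was possible because each group had 1 array. The signal of ARPC1B over background limits its fold, and no setting stands in for replicate cultures.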
